A study of Homo sapiens with 17 samples.

Results

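Replication-dependent histone genes were followed through the emetine response of HEK-293T cells, a line of human embryonic kidney cells. Emetine, a plant alkaloid, stops ribosomes from moving along mRNA. The members are the genes whose symbol begins with HIST1H, HIST2H, HIST3H or HIST4H, the older names of these genes. This rule took 51 of the 19222 genes of the 1 h table, and 38 of the 9982 genes of the tables made at 2 h. By class there were 4 genes for the linker histone H1, 13 for H2A, 16 for H2B, 9 for H3 and 9 for H4. All cells were wild type. For 1 h, cells received 500 µM 4-thiouridine (s4U) alone (untreated, 3 libraries) or with 1.8 µM emetine (3 libraries), and 1 more library of each kind came from cells without s4U. For 2 h, there were 3 untreated libraries, 3 with 1.8 µM and 3 with 240 µM emetine, whose labels give 250 µM s4U. The labels do not say whether replicates were separate cultures, so p-values measure only the spread between these libraries.

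Replication-dependent histone genes supply the bulk of the histones that package newly copied DNA, and their mRNA accumulates in S phase. Unlike other mRNA of animal cells, most of it carries no poly(A) tail and ends just after a short stem-loop, which stem-loop binding protein (SLBP) recognizes from processing to translation. These mRNAs are known to be degraded quickly when DNA replication stops, in a process tied to their translation, and a minor share is polyadenylated. The 1 h libraries were prepared with an mRNA kit that selects poly(A) tails. Their values are therefore taken to describe that minor share. Tails were not measured, so reads of carried-over RNA without a tail cannot be told apart. The 2 h libraries were prepared from total RNA.

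The stem-loop was searched as 6 pairs around a loop of 4 bases, within 100 bases past the stop codon. The loop had to read TTNC, with N any base. A stem-loop with other loop letters or an unpaired position in the stem would be missed. The form searched was present in 40 of the 50 members with a coding sequence. Among 19605 annotated protein-coding genes it was present in 154 (0.786%), although for members the genome was searched and for all genes the annotated transcripts. The sequences below are those of members that the results turn on, read from hg38 on the strand of the gene, with the 2 arms of the stem and the loop in capitals. The coordinates are those of the capitals.

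HIST1H1C (chr6:26055744-26055759, minus strand): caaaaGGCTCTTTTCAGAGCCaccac
HIST2H2BE (chr1:149886188-149886203, minus strand): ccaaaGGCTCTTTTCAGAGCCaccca
HIST1H2AC (chr6:26124669-26124684, plus strand): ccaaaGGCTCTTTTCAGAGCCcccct
HIST1H3D (chr6:26196789-26196804, minus strand): ccaaaGGCTCTTTTCAGAGCCaacca
HIST1H4E (chr6:26205001-26205016, plus strand): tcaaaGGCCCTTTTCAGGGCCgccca

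The H1, H2A, H2B and H3 genes shown share a stem, and that of the H4 gene has other letters. The search found no stem-loop of this form in HIST1H2BK or HIST1H2BD, which leaves other forms unexamined. Leaving out HIST1H1C and HIST1H2BK, 14 members had an annotated transcript ending over 200 bases past the stop codon on the genome, beyond the place of the stem-loop. Such members included HIST2H2BE, HIST1H2AC, HIST1H2BD and HIST3H2A. HIST1H1C had the poly(A) signal AATAAA at 56 bases past its stop codon, and HIST1H2BD at 65. The members lay on chromosome 6 in a first stretch (27 genes, 26020451 to 26285638) and a second stretch (15 genes, 27125897 to 27893891), on chromosome 1 (8 genes) and on chromosome 12 (1 gene).

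The promoters also had features in common. RefSeq promoters on the table's build, 250 bases before to 50 after the start, were matched for 46 members and searched on both strands. The TATA motif TATAAA was present in 65.2% of them and in 11.5% of all 35116 promoters. CCAAT was present in 87.0% against 34.6%, and was found in every H1, H2A, H2B and H3 promoter but in 1 of 7 H4 promoters. The octamer ATTTGCAT was present in 45.7% against 1.77%, in 9 of 12 H2A and 11 of 15 H2B promoters. CCAAT and ATTTGCAT can overlap where the end of one is the start of the other, and each was counted on its own. A match is a description of these windows only.

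Reads given to genes numbered between 22246279 and 40018063 per library with s4U. Emetine replicate 3 stood apart, and its deviations from its group followed transcript length (Spearman's rho 0.70, against −0.60 and −0.59 in the other emetine libraries, across genes). Such deviations cancel out within a group, so the opposite signs are not separate observations. VIM, NEFM and KRT18, markers of this line, ranged over 459 to 657, 141 to 213 and 33.2 to 61.0 CPM in all 8 libraries. CPM are reads scaled to a common library size. Of the other 5 of its 8 markers, NEFL ranged over 102 to 125 CPM and INA over 16.1 to 20.8. KRT8 (3.75 to 7.06 CPM), LHX1 (2.50 to 4.12) and PAX2 (1.23 to 2.93) were low. Of 10 markers of other cells, PTPRC, CD3E and HBB were at 0 reads in every library. The fibroblast gene COL1A1 measured 19.3 to 28.1 CPM, and the remaining 6 stayed at or below 2.65 CPM. The lowest markers of the line thus reached into the range of these 6 and lay below COL1A1. Members took between 4017 and 7838 reads per library, and their totals over the 6 libraries with s4U ran from 0 to 18569. HIST1H2BK gave 18569 and HIST1H1C 6203 of these reads.

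Some members share long stretches of sequence. The mapping can then split reads between copies or set them aside. Of the 50-base stretches of HIST1H4J, 92.1% also occurred elsewhere among annotated transcripts, as did 74.0% of HIST2H2BF, 71.9% of HIST2H3D, 63.5% of HIST1H2AI and 57.2% of HIST1H2BK. The values of these genes are uncertain for that reason. HIST1H1C, HIST1H3D and HIST1H4E shared no such stretch with transcripts elsewhere on the genome. Transcripts that overlap a member's own place were left out of this search. Reads given jointly to HIST1H3D and HIST1H2AD were set aside, 8, 17 and 4 untreated and 54, 28 and 37 with emetine. The counts of HIST1H3D are thus not complete.

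In the poly(A) libraries at 1 h, 4 members rose with emetine and none fell (0 lower at an unadjusted p under 0.05 too). They were HIST2H2BE, HIST1H2AC, HIST1H2BD and HIST1H3D, which encode core histones. Over all 13776 genes with more than 100 reads in total, 2.64% were called higher and 0.0436% lower, by edgeR's quasi-likelihood test with Benjamini-Hochberg adjustment. 22 members had enough reads to be tested and 29 did not. Of the 22, HIST1H3D and HIST1H4H passed the minimum of 100 reads only through the emetine libraries, since their untreated counts in both groups would have fallen short of it, so that a count over the 22 is a description and no support. Among the other 20, 3 were called. The median log2 change was 0.51 over the 22 and 0.38 over these 20, beside 0.03 for all genes. 10 of the 22 had every emetine library above every untreated library and 1 had every one below, where 19.5% and 15.2% of all genes did.

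HIST2H2BE, an H2B gene, measured 3.16, 3.52 and 4.48 CPM in untreated replicates 1 to 3 and 8.79, 7.41 and 9.57 CPM with emetine. Every emetine library was above every untreated one. The log2 change was 1.21 (SE 0.18, edgeR adjusted p = 0.0151). HIST1H2AC, an H2A gene, measured 1.83, 2.41 and 2.36 CPM untreated and 4.48, 4.47 and 5.89 CPM with emetine. The groups did not overlap, and the log2 change was 1.16 (SE 0.20, edgeR adjusted p = 0.0241). HIST1H2BD, an H2B gene, measured 3.73, 3.47 and 4.20 CPM untreated and 7.40, 5.89 and 6.15 CPM with emetine. The groups were apart here too, with a log2 change of 0.78 (SE 0.17, edgeR adjusted p = 0.0473).

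HIST1H3D, an H3 gene, was the least covered of the 4 and one of those that entered the test through the emetine libraries. It had 5, 13 and 11 reads in the untreated libraries and 62, 48 and 49 reads with emetine, a log2 change of 2.18 (SE 0.38, edgeR adjusted p = 0.0243). The level calls of all 4 genes were lost when any 1 untreated library was left out (0 members called). In those fits the log2 change was 1.11 to 1.36 in HIST2H2BE and 1.05 to 1.24 in HIST1H2AC. It was 0.71 to 0.85 in HIST1H2BD and 1.86 to 2.47 in HIST1H3D. The share of all genes called in those fits is not given here, so a loss across all genes cannot be told apart. Without emetine replicate 1, 1 call (HIST2H2BE) was left. Without emetine replicate 3, 6 members were called, against 10.1% of all genes. With spike-in reads as library sizes, which raised the median of all genes to 0.71, 2 members were called (0.436% of all genes) and the median of the members was 1.23. With a trend on transcript length and GC content removed, 7 were called (5.65% of all genes).

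**Figure D1:**
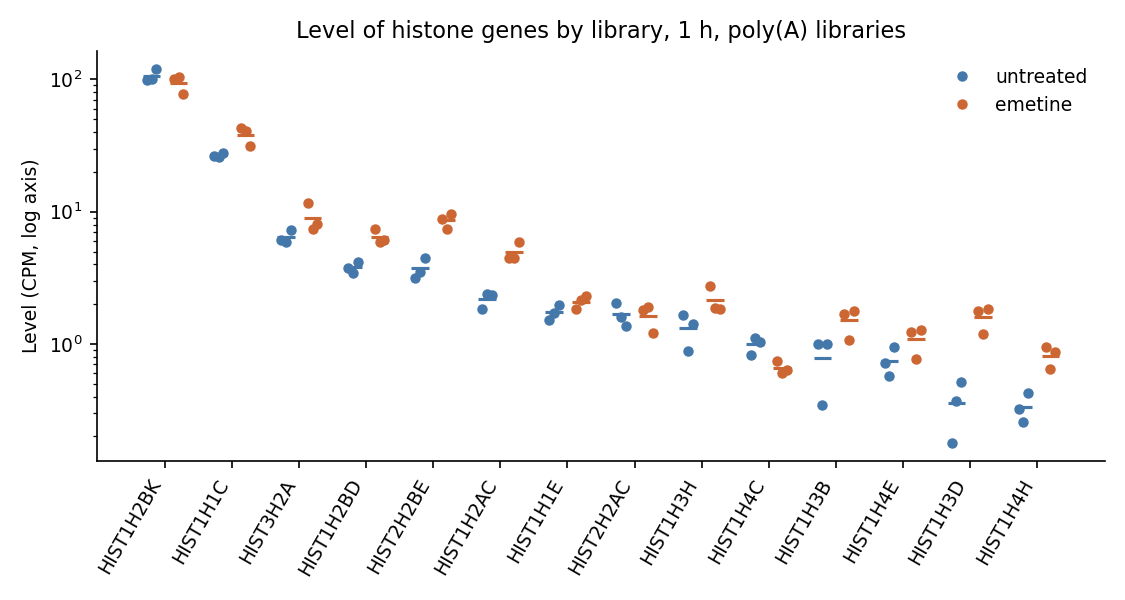
Level in CPM (log axis) of 14 of the 15 named members in each of the 3 untreated (blue) and 3 emetine (orange) libraries with s4U. Points are libraries and short lines group means; HIST1H1D, with 0 reads in 2 untreated libraries, is left out. In HIST2H2BE, HIST1H2AC, HIST1H2BD and HIST1H3D the orange points all lie above the blue ones, and in HIST1H2BK they overlap.

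The 2 members with the most reads did not pass the test of level. HIST1H1C, a linker histone gene, measured 26.6, 26.0 and 27.8 CPM untreated and 42.6, 41.0 and 31.2 CPM with emetine. The groups did not overlap, and the log2 change was 0.52 (SE 0.13, edgeR adjusted p = 0.0734). Without emetine replicate 3 it was 0.65 (adjusted p = 5.52e-05). HIST1H2BK, an H2B gene, measured 99.6, 100.3 and 119 CPM untreated and 99.9, 105 and 77.4 CPM with emetine. These groups overlapped, with a log2 change of −0.17 (SE 0.13, edgeR adjusted p = 0.427), which was 0.50 with spike-in reads as library sizes and 0.034 with the trend on length and GC content removed.

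The other named members varied in direction, and none passed. HIST3H2A changed by 0.49 on the log2 scale, HIST1H3H by 0.72, HIST1H3B by 0.98, HIST1H4H by 1.31, HIST1H4E by 0.57 and HIST1H1E by 0.27 (edgeR adjusted p from 0.0937 to 0.465). The log2 change of HIST2H2AC was −0.03 and that of HIST1H4C −0.59 (edgeR adjusted p of 0.957 and 0.245), and with spike-in reads as library sizes they were 0.61 and 0.068. HIST1H1D had 3, 0 and 0 reads untreated and 10, 8 and 11 with emetine, and was not tested. In bulk RNA, a different share of cells in S phase and a different amount of RNA per cell cannot be told apart.

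To separate RNA made during the hour from older RNA, T-to-C conversions were used. s4U in new RNA is converted so that it is read as C, and the fraction new is the share of a gene's reads that carry this mark, estimated per library with the background rate of the libraries without s4U. A gene needed 100 reads or more in all 6 libraries. Of the 10763 that had them, 0.214% were called higher and 4.83% lower by limma, and the median change in logit was −0.16. 3 members had that many reads, and 2 of them, HIST1H1C and HIST1H2BK, were called higher.

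HIST1H1C had a fraction new of 18.8%, 13.5% and 17.9% in the untreated libraries and 62.0%, 55.0% and 57.1% with emetine. The 95% intervals of single libraries, which cover counting error only because no molecular identifiers are described, spanned 11.1% to 22.3% untreated and 52.1% to 65.1% with emetine. The change in logit was 1.94 (SE 0.22, limma adjusted p = 1.33e-09). HIST1H2BK rose from 3.95%, 5.23% and 7.70% to 18.7%, 17.3% and 20.7%, a change in logit of 1.40 (SE 0.22, limma adjusted p = 5.34e-06). HIST3H2A measured 26.2%, 43.9% and 12.7% untreated and 53.0%, 49.7% and 49.3% with emetine. Its emetine libraries were all higher, but the untreated ones were widely spread, and it did not pass (change in logit 1.10, limma adjusted p = 0.108).

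Lower minimum counts let more members be examined. With 50 reads in each library, 6 members were tested and 5 were higher, beside 0.119% of all genes. HIST2H2BE measured 15.6%, 23.5% and 33.9% untreated and 80.0%, 70.0% and 73.6% with emetine (change in logit 2.26, limma adjusted p = 0.000335). HIST1H2AC measured 12.3%, 13.8% and 34.8% untreated and 78.1%, 67.6% and 68.1% with emetine (change in logit 2.40, limma adjusted p = 0.00633). In both genes every emetine library was far above every untreated one. HIST1H2BD measured 22.5%, 13.4% and 6.09% untreated and 53.5%, 41.5% and 52.6% with emetine (change in logit 1.91, limma adjusted p = 0.0274).

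With 20 reads in each library, a minimum chosen after seeing the data, 14 members were covered, and 11 had every emetine library above every untreated library, as did 2.51% of all genes with that many reads. Their median fraction new was 16.4% untreated and 44.5% with emetine, and that of all such genes was 12.9% and 11.3%. With this minimum, 4 of the 14 were called higher by limma (HIST1H1C, HIST2H2BE, HIST1H1E and HIST1H2BK), beside 0.0463% of all genes, and HIST1H2AC (adjusted p = 0.0516) and HIST1H2BD (adjusted p = 0.0784) were not. HIST1H1E, a linker histone gene, measured 8.49%, 13.6% and 9.91% untreated and 27.0%, 45.7% and 46.8% with emetine. HIST1H3H overlapped between the groups, with 38.2%, 34.6% and 60.4% untreated and 86.0%, 59.4% and 73.4% with emetine. HIST1H2AM and HIST1H2BC, named after their values were seen, overlapped as well.

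**Figure D2:**
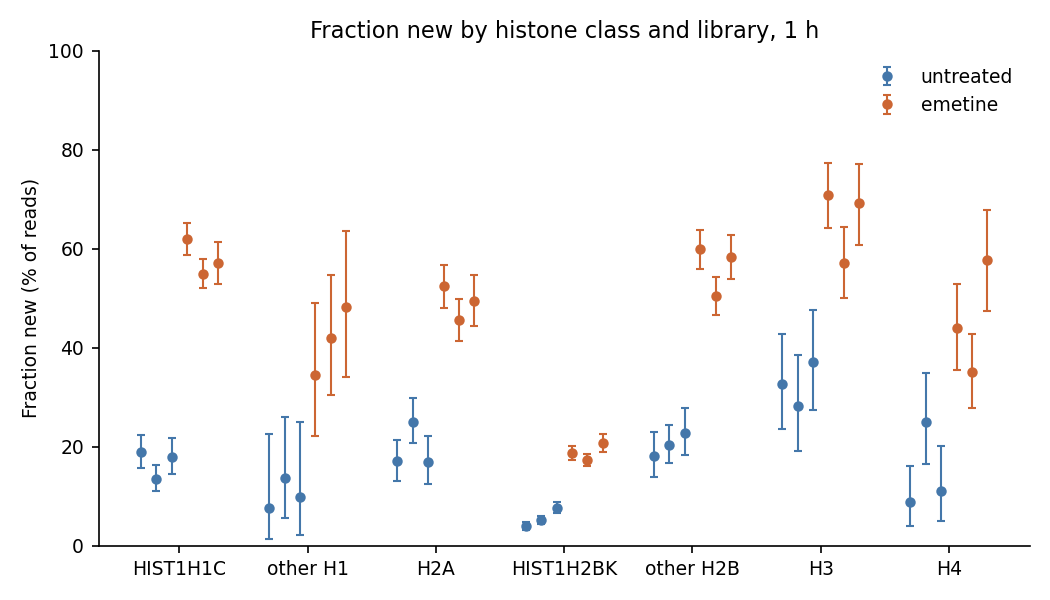
Fraction new in percent of reads, by histone class and library, for untreated (blue) and emetine (orange) libraries with s4U. Bars are 95% profile-likelihood intervals that cover counting error only, and HIST1H1C and HIST1H2BK are shown apart from the other genes of their class; in each set the 3 orange points lie above the 3 blue ones.

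Summed over a class, the fraction new was higher with emetine in all 5 classes. Sums over a whole class do not depend on how its reads are split between copies, but reads given jointly to several genes are outside them, and the sums that leave out HIST1H1C or HIST1H2BK depend on what was given to those genes. Over all 16 H2B genes the mean was 7.32% ± 2.13 (SD, n = 3) untreated and 25.8% ± 3.50 with emetine. H2A reads were new for 17.0%, 25.1% and 17.0% untreated and 52.4%, 45.5% and 49.4% with emetine. H3 reads gave 32.7%, 28.1% and 37.0% untreated and 70.9%, 57.2% and 69.2% with emetine, and H4 reads gave 8.80%, 25.0% and 11.0% untreated and 44.1%, 35.0% and 57.7%. H2B reads other than those of HIST1H2BK gave 18.1%, 20.3% and 22.8% untreated and 59.9%, 50.4% and 58.4% with emetine. H1 reads other than those of HIST1H1C gave 7.70%, 13.6% and 9.91% untreated and 34.5%, 42.0% and 48.3% with emetine. In each class the emetine libraries were all above the untreated ones. Single H4 genes differed, on few reads. HIST1H4C gave 13.5%, 20.1% and 9.74% untreated and 4.34%, 22.5% and 24.6% with emetine. HIST1H4H gave 25.3%, 71.1% and 34.7% untreated and 41.1%, 31.9% and 44.6% with emetine. Both overlapped between the groups, while HIST1H4E did not. The class sums carry no test, since the members were chosen together.

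The same held across the genome and across gene ends. Leaving out HIST1H1C and HIST1H2BK, members of the first stretch of chromosome 6 had a mean of 17.8% ± 0.933 (SD, n = 3) untreated and 54.8% ± 7.09 with emetine. In the second stretch the means were 20.6% ± 5.10 and 38.8% ± 4.67, and on chromosome 1 they were 23.3% ± 6.70 and 59.3% ± 4.73. Members with a transcript annotated far past the stop codon had 21.2%, 27.8% and 23.4% untreated and 62.2%, 53.8% and 59.3% with emetine. The others had 13.1%, 13.6% and 17.1% untreated and 43.3%, 35.6% and 49.3% with emetine. The 29 members that were too sparse to test for level gave 19.7%, 20.2% and 16.8% untreated and 35.3%, 31.5% and 47.8% with emetine when their reads were pooled.

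The level of labeled and unlabeled reads moved differently. Summed over all members but HIST1H1C and HIST1H2BK, labeled reads were 7.79 ± 1.26 CPM (SD, n = 3) untreated and 29.9 ± 5.50 CPM with emetine, and unlabeled reads were 30.0 ± 3.75 and 25.6 ± 0.541 CPM. The labeled sum with emetine was thus 3.85 times the untreated one, and the unlabeled sum 0.853 times. Labeled and unlabeled reads were scaled by TMM only, not with spike-in reads as library sizes. In level, the spike-in scaling raised the median change of all genes to 0.71. The direction of the unlabeled reads under that scaling was not tested. For HIST1H1C the log2 change was 2.18 in labeled reads (SE 0.24, limma adjusted p = 6.37e-16) and −0.47 in unlabeled reads (SE 0.14, adjusted p = 0.0768). For HIST1H2BK it was 1.53 in labeled reads (SE 0.24, limma adjusted p = 4.76e-07) and −0.40 in unlabeled reads (adjusted p = 0.125). HIST3H2A changed by 1.25 in labeled reads (limma adjusted p = 0.00171), a call that was lost without emetine replicate 1. All 3 tested members were thus higher in labeled reads, where 0.26% of all genes were and 0.632% were lower. With 50 reads in each library 6 of 6 were higher (0.297% of all genes), and with 20 it was 8 of 14 (0.324%). Of the 3 members, 0 were called in unlabeled reads (2 lower at an unadjusted p under 0.05), where 7.3% of all genes were higher and 0.0929% lower. Without emetine replicate 3, the unlabeled reads of HIST1H1C (−0.36) and HIST1H2BK (−0.25) were called lower. The share of all genes called in that fit is not given here. In level, 525 of 13579 genes were called lower without this library, against 6 of 13776 with it. The changes in labeled and unlabeled reads are of log2(CPM + 0.5).

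Reads with 2 or more conversions were also counted on their own, with no mixture model, in a test chosen after the data were seen. Genes needed more than 20 such reads in total. 20 members had them, of which 8 passed only through the emetine libraries, so the direction of the 20 together is partly set by this minimum and is not read here. HIST1H4C, with 3, 4 and 2 such reads untreated and 1, 5 and 3 with emetine, did not reach it. 7 members were called higher by edgeR, beside 0.306% of all 13084 genes tested and 1.1% called lower. 5 of the 7 were among the 12 members that did not need the emetine libraries to pass, and HIST1H3D and HIST1H4E were among the 8 that did. HIST1H3D had 0, 1 and 2 such reads untreated and 33, 24 and 32 with emetine (log2 change 4.50, adjusted p = 5.51e-07). HIST2H2BE had 9, 25 and 23 untreated and 210, 181 and 157 with emetine (2.98, edgeR adjusted p = 2.20e-16). HIST1H1C had 71, 62 and 48 untreated and 499, 546 and 259 with emetine (2.52, edgeR adjusted p = 2.51e-17). In each the emetine counts were several times the untreated ones.

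The other 4 called were HIST1H2AC, HIST1H2BD, HIST1H2BK and HIST1H4E, an H4 gene. HIST1H2AC had 4, 7 and 12 such reads untreated and 64, 80 and 71 with emetine (2.91, edgeR adjusted p = 3.36e-09). HIST1H2BD changed by 2.57, HIST1H2BK by 1.55 and HIST1H4E by 3.02 (edgeR adjusted p = 3.96e-08, 3.53e-07 and 0.00702). The call of HIST1H4E was lost without untreated replicate 3, emetine replicate 1 or emetine replicate 3. Without untreated replicate 1 there were 11 members called. The share of all genes in that fit is not given here, so this count describes the members only. Reads with 0 or 1 conversion were counted too. They include new reads that carry few conversions, so they are not older RNA alone. None of 37 members was called in either direction by edgeR, beside 5.78% called higher and 0.0522% lower of all 15330 genes. At an unadjusted p under 0.05, 5 members were higher and 1 lower, as were 2666 and 845 of all genes. With so few members, these counts are not read as a difference from all genes. Of these 37, 3 passed the minimum only through the emetine libraries.

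**Figure D3:**
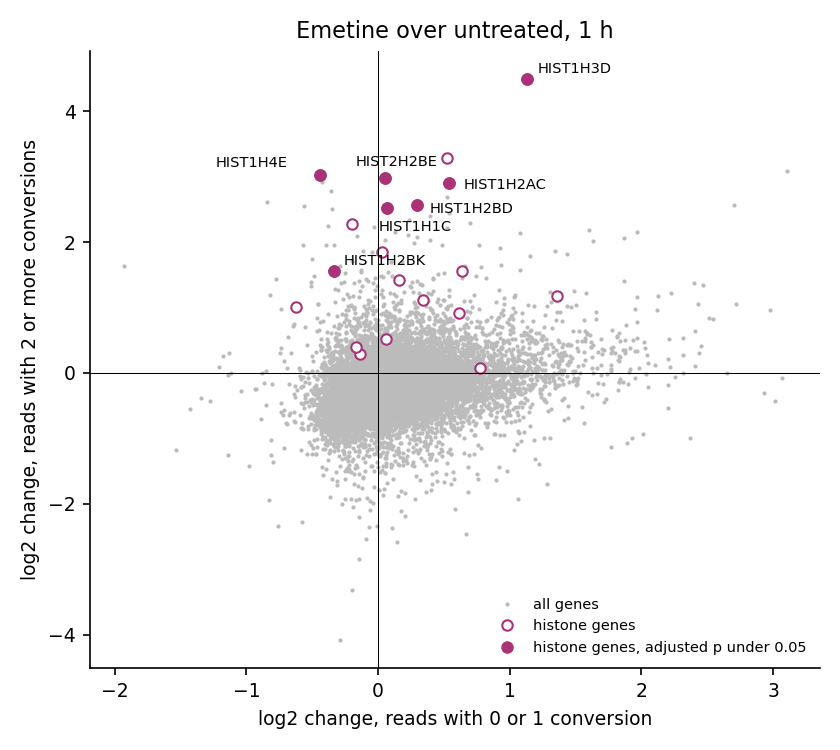
Log2 change with emetine of reads with 2 or more conversions (vertical axis) against that of reads with 0 or 1 conversion (horizontal axis), for all genes tested in both (grey) and for 20 histone genes (purple, filled where the vertical change passed an adjusted p of 0.05). The 7 filled points lie between 1.55 and 4.50 on the vertical axis; genes needed more than 20 converted reads in total, which 8 of the 20 histone genes reached only through the emetine libraries.

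The libraries without s4U gave a further look at the level, with 1 library of each kind and so no test. HIST2H2BE had 85 reads untreated and 385 with emetine, a ratio of 3.36 after scaling (exact 95% interval 2.65 to 4.30, counting error only). HIST1H2AC had 44 and 174 reads (ratio 2.93, interval 2.10 to 4.18), and HIST1H2BD 108 and 294 (2.02, 1.61 to 2.54). HIST1H3D had 3 and 95 reads, a ratio of 23.5 with an interval of 7.80 to 116. HIST1H1C had 587 and 1343 reads (1.70, 1.54 to 1.87). These 5 genes were higher in the emetine library, as they were with s4U. Other members went against their change with s4U. HIST1H1E had 58 and 48 reads, a ratio of 0.614 (0.410 to 0.915), where its log2 change with s4U was 0.27, and HIST1H2BK had 2397 and 4068 reads, a ratio of 1.26 (1.20 to 1.32), where it was −0.17. HIST1H4H had 21 and 14 reads, a ratio of 0.494 whose interval (0.233 to 1.02) included no change, while with s4U its 3 emetine libraries were above its untreated ones. Of the 22 members tested for level, 15 were higher in the emetine library, where 50.2% of all genes were. By the plain ratio, 6 members were more than 2-fold higher. For all genes the share was 0.69%, but after 0.5 CPM was added to both libraries. That addition shrinks ratios at low levels, so these 2-fold figures are on unlike measures and are not compared.

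For s4U itself, no gene of 14102 was called by edgeR (178 higher and 495 lower at an unadjusted p under 0.05), nor any of the 25 members tested, whose median log2 change with s4U was −0.27 beside −0.01 for all genes. At an unadjusted p under 0.05, 3 members were lower and 0 higher. DESeq2 called 7 genes higher (0.0496%) and 18 lower (0.128%), among them 0 members. Without s4U, 0.0641% (untreated) and 0.0523% (emetine) of T positions in member reads were read as C, beside 0.0504% and 0.0521% over all genes. Member reads covered 32.0 T positions on average, HIST1H1C reads 20.9 and reads of all genes 37.7, and the estimate of the fraction new takes this number into account.

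Part of the reads crossed a splice junction, although replication-dependent histone genes are known for having no introns. They were most frequent in HIST1H2BK, HIST1H2BD and HIST1H3D. In HIST1H2BK they made up 21.6% ± 2.29 (SD, n = 3) of reads untreated and 19.6% ± 3.14 with emetine. An exact permutation test gave p = 0.5 (two-sided, adjusted over 3 genes 0.7), where 0.1 is the smallest p that 3 against 3 libraries allow. The spliced HIST1H2BK reads were new for 5.64% ± 2.28 untreated and 19.1% ± 3.65 with emetine, and the unspliced ones for 5.64% ± 1.83 and 18.8% ± 2.22. In this gene both kinds of read had close means. In HIST1H2BD, 17.5% ± 7.31 of reads were spliced untreated and 8.81% ± 4.12 with emetine (exact permutation p = 0.2, adjusted 0.6). Its spliced reads were new for 10.0% ± 17.2 untreated and 36.0% ± 11.7 with emetine, and its unspliced reads for 14.4% ± 6.15 and 50.6% ± 5.65. In HIST1H3D the spliced share was 18.4% ± 24.4 untreated and 26.0% ± 8.88 with emetine (exact permutation p = 0.7, adjusted 0.7), with 0, 6 and 1 spliced reads in the untreated libraries.

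In total RNA at 2 h the levels of the members were in another range. The deposited tables give, for each gene, the authors' mean of normalized counts over all 2 h libraries, treated and untreated together, with no value per library, so no comparison between doses was made. Members ranged from 187 (HIST4H4) to 6842 (HIST1H2BC) in this mean, with a median of 1233, beside 845 for all 9982 genes. 17 of the 38 had 100 or fewer reads in total at 1 h, and HIST1H2AJ was in the 2 h tables only.

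The 2 tables were normalized separately, so each gene's ratio of 2 h mean to 1 h untreated CPM was set against that of the median gene. In 19 of 21 members this ratio was over 10 times that of the median gene, as in 1.39% of all 9951 genes, and the median member was at 79.6 times. HIST1H2BC and HIST1H2AM, named after their values were seen, were far above the median gene. HIST1H2BC was at 286 times, HIST1H2AM at 220 times and HIST1H1E at 99.7 times. The 2 members below 10 times were HIST1H1C, at 6.02 times, and HIST1H2BK, at 1.20 times. HIST2H2BE was at 11.5, HIST3H2A at 19.7, HIST1H2BD at 33.6 and HIST1H2AC at 40.2 times, the lower part of the range. Library type, time and treatment all differ between these tables and cannot be told apart.

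**Figure D4:**
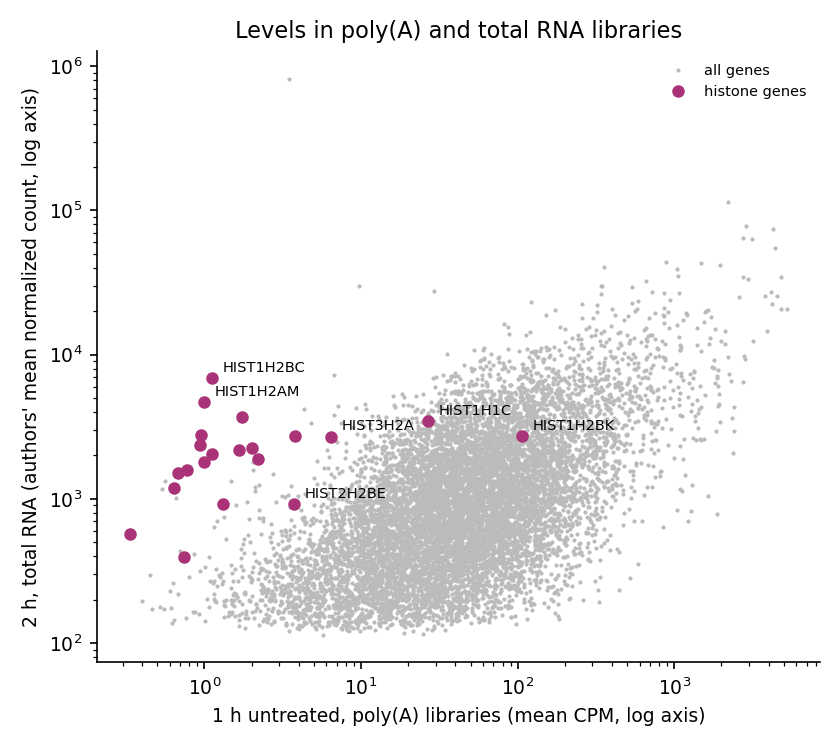
The authors' mean normalized count at 2 h in total RNA (vertical, log axis) against the mean CPM of the untreated poly(A) libraries at 1 h (horizontal, log axis), for all 9951 genes in both (grey) and 21 histone genes (purple). HIST1H2BK lies among the other genes, while 19 of the 21 histone genes lie toward the upper left, with a higher ratio than the median gene.

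Genes that act on histone mRNA were described from lists of known factors. Of the 25 that process, degrade or export histone mRNA, 2 were called higher in level and none lower, beside 2.64% of all genes called higher. At an unadjusted p under 0.05, 9 were higher and 2 lower, as were 2056 and 958 of all 13776 genes. The 2 were ZNF473, a component of histone pre-mRNA processing (log2 change 0.55, edgeR adjusted p = 0.033), and ZCCHC6, a uridylyltransferase (0.83, adjusted p = 0.0345). The fraction new of ZNF473 was 50.1% ± 7.32 (SD, n = 3) untreated and 37.5% ± 0.259 with emetine. It did not pass (limma adjusted p = 0.213). LSM11, a subunit of the U7 particle that helps cut histone pre-mRNA, had a lower fraction new (change in logit −0.72, limma adjusted p = 0.0312). This was 1 of 25 genes, and 4.83% of all genes were called lower. Of 12 genes of histone transcription, 0 passed in level by edgeR (4 higher and 1 lower at an unadjusted p under 0.05) or in fraction new by limma (1 lower). NPAT, a coactivator of histone genes, changed by 0.66 in level (edgeR adjusted p = 0.0783) and by −0.41 in logit fraction new.

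Single calls in level among the next lists stand beside 2.64% of all genes called higher. Of the 19 histone chaperones, TONSL rose in level (0.47, edgeR adjusted p = 0.0392) and 0 were called in fraction new by limma (1 lower at an unadjusted p under 0.05). Of 20 S phase genes, E2F2 rose in level (0.52, edgeR adjusted p = 0.0234), and 0 were called in fraction new by limma (1 higher at an unadjusted p under 0.05). That gene was PCNA, the sliding clamp of DNA replication, whose fraction new was 9.86% ± 1.37 (SD, n = 3) untreated and 14.2% ± 0.558 with emetine (limma adjusted p = 0.295). The median log2 change in level of the S phase genes was −0.11, beside 0.03 for all genes. Their median change in logit fraction new was 0.10, beside −0.16 for all genes, and in reads with 2 or more conversions their median log2 change was 0.07, beside −0.20.

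Replacement histones, whose mRNA is polyadenylated and made outside S phase too, were also read. 11 of the 12 were tested and 0 passed in level by edgeR (1 higher at an unadjusted p under 0.05). H1F0, a linker histone gene, had a fraction new of 20.5% ± 2.90 untreated and 42.1% ± 1.83 with emetine (change in logit 1.05, limma adjusted p = 0.000747). CENPA, the histone H3 variant of centromeres, fell from 24.2% ± 6.94 to 13.1% ± 1.03 (change in logit −0.73, limma adjusted p = 0.0261). The remaining 9 passed in neither direction, and the median of the 11 was 0.02, where that of the 3 members tested was 1.40.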

How the data were processed

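RNA of HEK-293T cells was sequenced in 8 libraries at 1 h (TimeLapse-seq) and 9 at 2 h. Cells of 1 untreated and 1 emetine library at 1 h received no s4U. The paper describes the 2 h libraries as RNA sequencing with a total RNA kit, and their labels give s4U. At 1 h the authors deposited counts of reads grouped by gene, T positions and T-to-C conversions. At 2 h they deposited 2 tables with a mean of normalized counts per gene (a signal pooled over all 2 h libraries), and fold changes, errors and p-values of their own comparisons, which were not used. Per the labels, cutadapt, HISAT and SAMtools were used with hg38. The 8 sample names of the 1 h table all matched labels.

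Counts were summed per gene over the whole table. Reads given to spike-ins (0.304% to 0.728% per library) or to no gene or several genes stayed out. Levels were tested with edgeR 4.0.16 (quasi-likelihood, TMM) over genes with more than 100 reads in total. The fraction new was the weight of a mixture of 2 binomials, bounded between 0.001 and 0.999, with the background rate from the library without s4U of the same treatment, and its logit was tested with limma 3.58.1 (trend, robust) where all 6 libraries had 100 reads or more. CPM times the fraction new gave labeled reads, and times its complement unlabeled reads, tested by limma as log2(CPM + 0.5). p-values were adjusted by Benjamini-Hochberg over all genes tested, and a call is an adjusted p under 0.05. R 4.3.3, DESeq2 1.42.0 and Python 3.11.15 were also used. The fits were tested on simulated data.

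Named members are the 3 with the highest mean CPM in each histone class and every member past the threshold. From each other list, up to 3 genes with the lowest p and all past the threshold could be named. The members and lists were chosen with earlier results of these data known. Alternatives were other normalizations, filters, tests, pseudocounts and background rates, a replicate block and each library left out.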

Additional observations from a re-analysis of the deposited data

Results flagged for a closer look

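Reads that the table gives jointly to HIST1H2AD and HIST1H3D entered no comparison. They numbered 8, 17 and 4 in the untreated libraries and 54, 28 and 37 with emetine, and 5 and 55 in the untreated and emetine libraries without s4U. Their mean was 0.321 ± 0.152 CPM (SD, n = 3) untreated and 1.21 ± 0.449 CPM with emetine, with every emetine library above every untreated one. They were listed because this signal lies outside the main counts and above the untreated libraries. No test was made.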

How the results depend on the processing

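The count of members with a higher level, 4, was 2 with spike-in reads as library sizes, 7 with the trend on transcript length and GC removed, 1 with the replicate block, and 0 to 6 when 1 library was left out. For the fraction new, 2 members became 5 with 50 reads in each library and 4 with 20, the latter minimum chosen after seeing the data. For labeled reads, 3 became 6 and 8. For unlabeled reads, the 0 called lower ranged from 0 to 2 when 1 library was left out. For reads with 2 or more conversions, 7 ranged from 6 to 11, and was 9 with the replicate block. The cause of these shifts was not tested. Where no share of all genes is given for an alternative, its count describes the members only. The remaining 127 counts under alternatives stayed within 1.5 times, and of the values of named genes 521 kept their direction and side of the threshold, 19 passed it, 26 no longer did and 22 changed sign, none of them past the threshold. With spike-in reads as library sizes the level of HIST1H2BK became 0.50, HIST1H4C 0.068 and HIST2H2AC 0.61. With the length and GC trend removed HIST1H2BK became 0.034 and HIST2H2AC 0.15. With 1 library left out, the level of HIST2H2AC ranged from −0.153 to 0.139 and the unlabeled reads of HIST3H2A from −0.271 to 0.159. The s4U effect ranged from −0.0578 to 0.0469 in HIST1H1C, −0.0834 to 0.0340 in HIST1H1E, −0.0745 to 0.0700 in HIST1H2AC, −0.0111 to 0.250 in HIST1H3B and −0.210 to 0.00192 in HIST1H3H. Reads with 0 or 1 conversion ranged from −0.00615 to 0.182 in HIST1H1C, −0.0473 to 0.145 in HIST1H1E, −0.286 to 0.0155 in HIST2H2AC and −0.0719 to 0.142 in HIST2H2BE.

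Replicate numbers were shared between groups, but same-numbered libraries did not deviate together. The correlation of their deviations was 0.091, 0.038 and −0.091 in level, and 0.056, 0.0025 and 0.022 in fraction new. With the block, 3 members were called in fraction new and 3 in labeled reads, with no share of all genes beside these counts. Depth limits the members: 29 of 51 had too few reads for the test of level, and 48 for that of the fraction new.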
